A study of Mus musculus with 6 samples.

Results

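The solute carrier genes described here were chosen by name and by level. A gene was taken when the deposited table lists it as protein-coding, its symbol starts with Slc and a digit, and its mean over the 6 libraries was at least 50 normalized counts. Of 276 protein-coding genes with such a name, 220 had a mean of at least 5 and 164 reached 50. A further 6 genes were set aside by name (Slc8a1, Slc2a1, Slc2a4, Slc16a3, Slc25a20 and Slc7a11), of which 4 had reached 50, so 160 genes of the 21269 in the table remained. They fall into 42 families by the number in the symbol and lie on 20 chromosomes. Just inside the limit were Slc25a47 and Slc2a9 with a mean of 51.3 each and Slc16a6 with 52, and just outside were Slc2a8 with 49.5, Slc22a4 with 45.5 and Slc2a4 with 43.3. A mean over both groups can hide a low group, and 6 of the 160 genes had a mean under 50 in LNA Control or in LNA Malat1 alone. The level chose the genes and is given only as a description. The rule does not use the difference between the groups, but it was set with earlier results of these data known.

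HL-1 is a beating muscle cell line derived from a mouse atrial tumour and grown as 1 line, so all 6 libraries share its genome. The cells were seeded 24 h before transfection and collected 48 h after it with 50 nM of an LNA gapmer, a short DNA strand with locked ends that pairs with an RNA and lets RNase H cut it. LNA Control (3 libraries) received a control gapmer, and LNA Malat1 (3 libraries) a gapmer against the long noncoding RNA Malat1. The labels do not say whether the 3 libraries of a group came from separate cultures, so p-values measure the spread between these libraries, which may be technical.

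Solute carriers are membrane proteins that move ions, sugars, amino acids, metals, vitamins and metabolites across the plasma membrane or the membranes of organelles, by facilitated diffusion, by exchange, or coupled to a gradient of sodium, protons or chloride. Families are numbered by sequence relation, so members of a family often share a class of substrate but not always a membrane. In cardiac muscle they set intracellular pH, chloride and cell volume, deliver fuel and amino acids, and link the mitochondrial matrix to the cytosol. A symbol is not always a function. Slc9a3r1 and Slc9a3r2 encode PDZ scaffold proteins that bind carriers, and Slc4a1ap and Slc7a6os are named for a carrier that they bind or neighbour and do not themselves belong to a carrier family, so 4 of the 160 names are not transporters.

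Malat1 itself read 5051, 5197 and 4369 normalized counts in the LNA Control libraries and 2833, 2792 and 2732 in the LNA Malat1 libraries, 57.2% of the control level (log2 fold change -0.80, SE 0.072, adjusted p = 7.5e-06, limma). The deposited values of a library added up to 4831007 to 4921406 in LNA Control and 4758777 to 4762957 in LNA Malat1, and the reads on genes recovered from the rounding of the values were between 4511607 and 5594681 per library. Of 16 markers of atrial cardiomyocytes, 15 were in the table and 9 had a mean of at least 50, with a summed level of 8839 to 9090 in LNA Control and 8223 to 8329 in LNA Malat1, while Myh6 was at most 7 counts. Against the direction of the sum, Nppb read 0 in all 3 LNA Control libraries and 6 to 11 in LNA Malat1, Gja1 13 to 21 and 59 to 72, and Tnnt2 647 to 663 and 710 to 746. The markers listed for other cells summed to 19 to 28 and 32 to 35 (endothelial), 14 to 25 and 36 to 47 (immune), 1953 to 2530 and 1824 to 1957 (fibroblast, nearly all from Col1a1, with Col1a2 at most 1) and 1512 to 1678 and 1553 to 1701 (smooth muscle) in LNA Control and LNA Malat1. Their part in the results was not tested. In these bulk samples, fewer cells of a kind and less RNA per cell cannot be told apart. LNA Malat1 replicates 1 and 3 differed by less than the sampling noise over 14522 genes (chi-square 0.949 per gene, p = 1.0), although not over the 1754 genes with at least 1600 reads (1.113 per gene, p = 0.00058). In the same test, LNA Malat1 replicates 1 and 2 were not told apart over 14308 genes either (chi-square 1.01 per gene, p = 0.19), but differed over the 1605 genes with at least 1600 reads (1.662 per gene, p = 4.7e-56), and replicates 2 and 3 differed in both. Replicates 1 and 3 were counted as 1 sample in each mean ± SD, so LNA Malat1 means have n = 2 and LNA Control means n = 3. Log2 fold changes, SEs and adjusted p-values printed with them take the 3 LNA Malat1 libraries as separate, unless merging is stated. With replicates 1 and 3 merged, the adjusted p (limma) was larger for Slc12a2 (0.00017 against 2.7e-06), Slc26a7 (0.0071 against 0.00063) and Slc6a17 (0.039 against 0.0073).

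Most solute carrier genes moved little. A gene was called when its adjusted p was at most 0.05 and its fold change at least 1.5. Of the 160 genes, 6 were called higher in LNA Malat1 (3.75%, against 2.38% of the 9918 protein-coding genes with the same minimum mean and 8.00% of all 15650 genes tested). Another 7 were called lower (4.38%, against 3.47% and 2.92%). Over all genes tested, 1252 were called higher and 457 lower, a split that quantile normalization turned into 770 and 696, while the solute carriers then gave 5 and 7. By adjusted p alone, 24 genes were higher (15%, background 11.0%) and 28 lower (17.5%, background 20.6%), and the 24 became 15 without LNA Malat1 replicate 1. With LNA Malat1 replicates 1 and 3 merged, 16 were higher and 21 lower by adjusted p. Those described below that then no longer passed were Slc12a7, Slc12a9, Slc16a1, Slc25a4, Slc35f5 and Slc39a6 among the lower genes and Slc7a6os, Slc9a7, Slc22a21, Slc25a24 and Slc30a4 among the higher, with adjusted p from 0.054 (Slc30a4) to 0.14 (Slc9a7 and Slc25a4). All 3 LNA Malat1 libraries lay above all 3 controls for 31 genes (19.4%, background 16.2%) and below them for 44 (27.5%, background 29.7%). The median log2 fold change was -0.04 both for the 160 genes and for the protein-coding genes of the same minimum mean, and 117 solute carrier genes (73.1%, against 73.5%) had an absolute log2 fold change under 0.25. These shares were not tested against the background. The same background percentages apply to the groups of solute carrier genes below, which were not tested against them either. The lists of other genes below hold genes with a mean of at least 5. Their background is all 15650 genes tested, of which 2231 were higher and 2195 lower by adjusted p alone. The lists were not tested against it. On the recovered reads, limma's voom called the same 13 genes, and it called no gene in the groups of genes for which 0 calls by limma are given below.

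**Figure D1:**
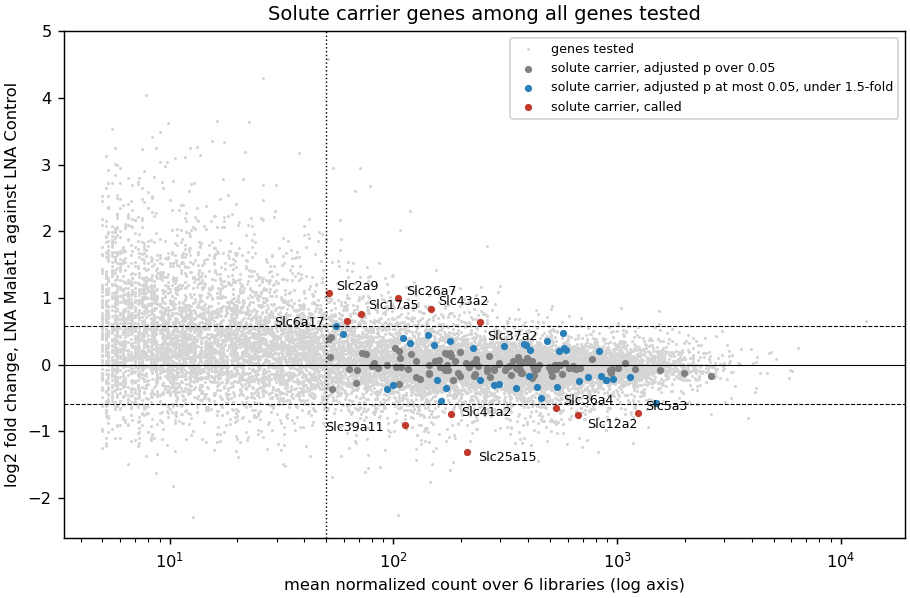
Each point is a gene, with its mean normalized count over the 6 libraries on a log axis and its log2 fold change between LNA Malat1 and LNA Control on the other axis. Grey points are the 15650 genes tested, coloured points solute carrier genes, dashed lines mark 1.5-fold and the dotted line the mean of 50; the labelled called genes run from Slc25a15 at -1.31 to Slc2a9 at 1.07.

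The called genes that fell included Slc25a15, Slc39a11, Slc12a2, Slc41a2, Slc5a3 and Slc36a4, from 6 families, and the 6 that rose were Slc37a2, Slc6a17, Slc17a5, Slc43a2, Slc26a7 and Slc2a9, from 6 families. In all 13, the 3 libraries of LNA Malat1 and the 3 of LNA Control did not overlap. The share of all called genes with such a separation was not counted, and the separation is not further support for the calls. Of the called genes that rose, Slc2a9 and Slc6a17 had LNA Control means of 32.7 and 48.0, under the minimum mean of 50, which they passed through the LNA Malat1 libraries. Over the 160 genes, the log2 fold change and the mean count had a Pearson r of -0.27 and a Spearman rho of -0.25, a description across genes that share the same libraries. The corresponding values for genomic span were -0.05 and -0.02.

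**Figure D2:**
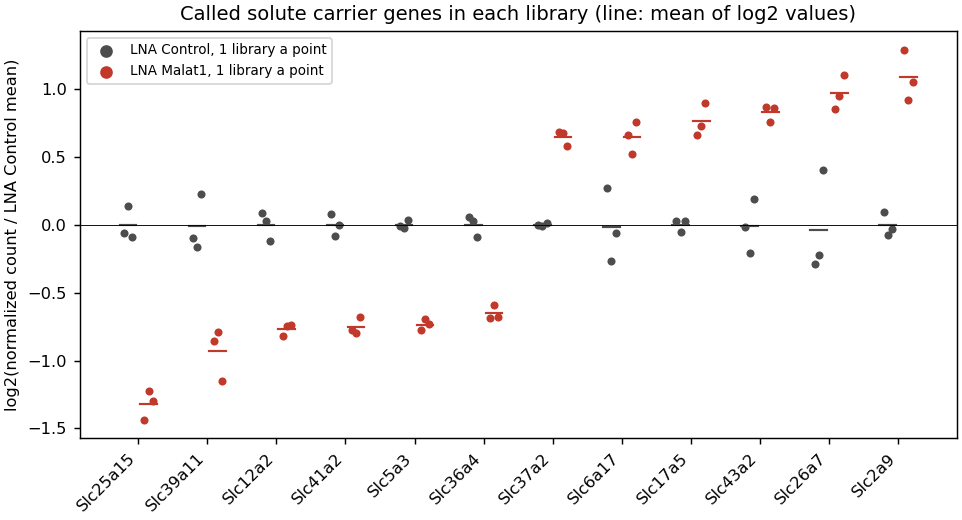
Each point is 1 library and shows the log2 of its normalized count over the mean of LNA Control, for 12 called genes ordered by their change; short lines are means of the log2 values. For every gene the red LNA Malat1 points lie on the same side of all 3 grey LNA Control points, and the control libraries of Slc26a7 and Slc6a17 are spread most.

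The group of ions and of acid or base held 23 genes, including the 3 named above that are not transporters (Slc9a3r1, Slc9a3r2 and Slc4a1ap), of which 5 were higher and 6 lower by adjusted p, with a median log2 fold change of -0.05 (0.01 under quantile normalization). Family 12 couples chloride to sodium or potassium and is best known for setting cell volume and intracellular chloride. Slc12a2, which encodes the chloride importer NKCC1, fell from 840.0 ± 60.6 (SD, n = 3) in the controls to 496.2 ± 8.1 (SD, n = 2) normalized counts. The libraries read 891, 856 and 773 with LNA Control and 477, 502 and 504 with LNA Malat1 (log2 fold change -0.76, SE 0.061, adjusted p = 2.7e-06, limma), and the gene lies on the plus strand of chromosome 18 from 57878678 to 57946821. Others of the family changed less. Slc12a7, the potassium-chloride cotransporter KCC4, went from 1056, 932 and 898 to 787, 828 and 824 (log2 fold change -0.24, adjusted p = 0.013). Slc12a4, the potassium-chloride cotransporter KCC1, went the other way, from 793, 746 and 766 to 905, 863 and 897 (log2 fold change 0.21, adjusted p = 0.0084). Slc12a9, whose transport function is unsettled, was at 169, 176 and 162 against 144, 136 and 152 (log2 fold change -0.23, adjusted p = 0.047). With LNA Malat1 replicates 1 and 3 taken as 1 sample, Slc12a7 (adjusted p = 0.06) and Slc12a9 (adjusted p = 0.072) no longer passed and Slc12a4 did (adjusted p = 0.043).

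WNK kinases and the kinases SPAK and OSR1 phosphorylate family 12 transporters, and the ubiquitin ligase NEDD4-2 acts on several carriers and channels. Of 14 genes listed for this pathway, 12 were tested, with 1 called higher and 1 lower and a median log2 fold change of -0.07. Of all genes tested, 8.00% were called higher and 2.92% lower. Wnk4 read 33, 25 and 31 with LNA Control and 82, 79 and 91 with LNA Malat1 (log2 fold change 1.48, SE 0.154, adjusted p = 2.1e-05, limma), whereas Nedd4l, the gene of NEDD4-2, read 463, 469 and 444 against 277, 238 and 252 (log2 fold change -0.84, SE 0.066, adjusted p = 2.3e-06). Stk39, the gene of SPAK, and its partner Cab39 passed the adjusted p with log2 fold changes of -0.24 (adjusted p = 0.005) and -0.18 (adjusted p = 0.019). Of the sodium pump and its regulators, which maintain the sodium gradient that many carriers use, 5 of 14 listed genes were tested, 0 were called (limma) and 2 were lower by adjusted p and also at an unadjusted p under 0.05, among them Atp1b1 (log2 fold change -0.26, adjusted p = 0.0043).

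Bicarbonate transporters of family 4 moved in opposite directions. Slc4a4, which encodes the sodium-bicarbonate cotransporter NBCe1 of heart and kidney, read 1837, 1795 and 1716 with LNA Control and 1149, 1236 and 1204 with LNA Malat1, and the groups did not overlap. Its log2 fold change of -0.58 (SE 0.054, adjusted p = 9.3e-06, limma) stopped just short of 1.5-fold. Slc4a7, the electroneutral sodium-bicarbonate cotransporter NBCn1, rose from 507, 451 and 482 to 690, 663 and 652 (log2 fold change 0.48, SE 0.057, adjusted p = 6.6e-05). The chloride-bicarbonate exchangers Slc4a2 and Slc4a3 had log2 fold changes of -0.06 and -0.20 and did not pass (adjusted p = 0.47 and 0.092).

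The anion exchangers of family 26 carry chloride, bicarbonate, sulfate or iodide. All 3 genes had log2 fold changes above 0. Slc26a7 read 58, 61 and 94 with LNA Control and 128, 137 and 153 with LNA Malat1, with LNA Control replicate 3 above the other controls but below every LNA Malat1 library. It rose from 71.0 ± 20 (SD, n = 3) in the controls to 138.8 ± 2.5 (SD, n = 2), and the log2 fold change was 0.99 (SE 0.16, adjusted p = 0.00063, limma). The gene lies on the minus strand of chromosome 4 from 14502430 to 14621805. Slc26a2, a sulfate transporter, was at 556, 503 and 531 against 635, 625 and 631 (log2 fold change 0.25, adjusted p = 0.0042). Slc26a11 had a log2 fold change of 0.41 that did not pass (adjusted p = 0.056).

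Sodium-proton exchangers of family 9 extrude acid. The organelle exchanger Slc9a7 had a log2 fold change of 0.33 (adjusted p = 0.044), although its groups shared the value 116. The scaffold gene Slc9a3r1, which is not an exchanger, fell from 496, 504 and 462 to 380, 396 and 385 (log2 fold change -0.33, adjusted p = 0.00087). The sodium-phosphate cotransporters Slc20a1 (log2 fold change -0.07, adjusted p = 0.38) and Slc20a2 (log2 fold change -0.05, adjusted p = 0.47) did not pass.

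**Figure D3:**
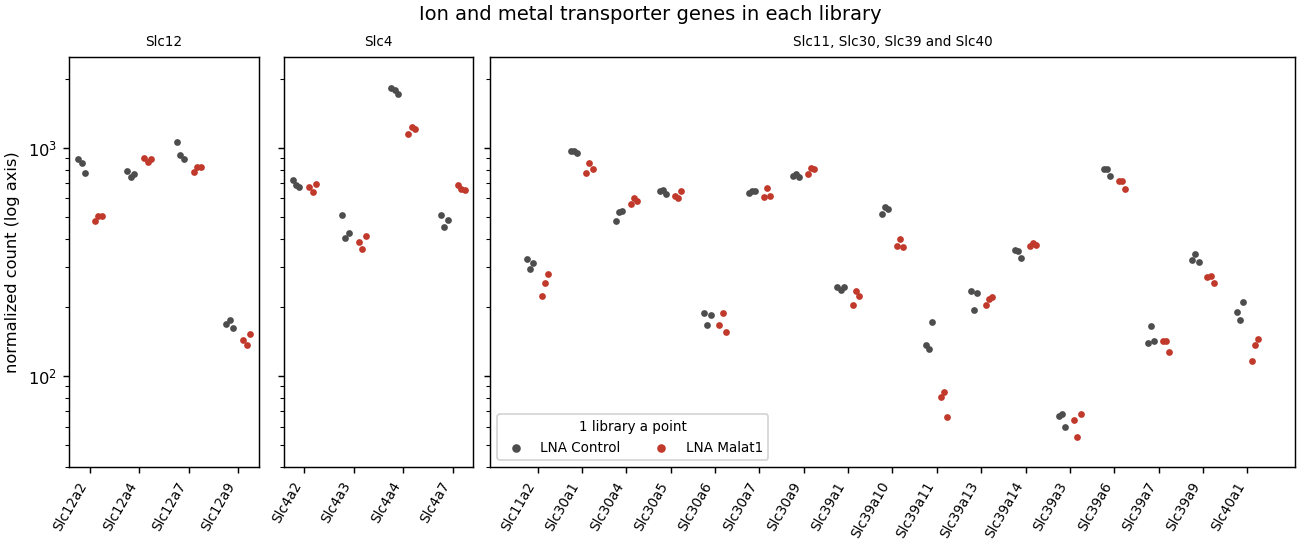
Each point is the normalized count of a gene in 1 library on a log axis, with LNA Control in grey and LNA Malat1 in red, for genes of families 12 and 4 and for the zinc and iron families 11, 30, 39 and 40. Slc12a2 lies lower in all 3 LNA Malat1 libraries and Slc12a4 higher, Slc4a4 (1149 to 1236) and Slc4a7 (652 to 690) move in opposite directions, and among the metal genes Slc39a10, Slc39a11 and Slc40a1 are separated most.

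Metal transporters were more often lower than higher. Of 22 genes, 17 had a log2 fold change below 0, beside 5817 of the 9918 protein-coding genes of the same minimum mean. With the 3 other scalings tried, the number below 0 was 15 to 18. By limma, 0 were called higher (2 passed the adjusted p and 2 an unadjusted p under 0.05) and 2 were called lower (8 passed). Of the protein-coding genes of the same minimum mean, 2.38% were called higher and 3.47% lower, and 11.0% and 20.6% passed the adjusted p. The metal group was not tested against these shares. The median log2 fold change was -0.08. Family 39, the ZIP proteins, brings zinc into the cytosol from outside or from organelles. Of its 9 genes, 8 were below 0, as with each other scaling, and 4 were lower by adjusted p. Slc39a11, a ZIP gene, read 137, 131 and 172 with LNA Control and 81, 85 and 66 with LNA Malat1 (log2 fold change -0.91, SE 0.128, adjusted p = 0.00023, limma). The mean fell from 146.7 ± 22.1 (SD, n = 3) in the controls to 79.2 ± 8.1 (SD, n = 2). This gene spans 113244853 to 113650079 on chromosome 11 (minus strand) and overlaps Cog1 on the other strand, whose log2 fold change was -0.17 (adjusted p = 0.075).

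Slc39a10, a plasma membrane ZIP, fell below 1.5-fold from 512, 553 and 538 to 371, 400 and 366 (log2 fold change -0.49, SE 0.058, adjusted p = 5.5e-05, limma). Slc39a9 (log2 fold change -0.30, adjusted p = 0.0037) and Slc39a6 (log2 fold change -0.18, adjusted p = 0.026) were lower as well, and Slc39a14, which also carries iron, had a log2 fold change of 0.12 (adjusted p = 0.14). Family 30, the ZnT proteins, works in the opposite sense and moves zinc out of the cytosol. Slc30a1, the zinc exporter of the plasma membrane, read 968, 967 and 948 against 774, 859 and 811 (log2 fold change -0.24, adjusted p = 0.0052). Slc30a4 rose (log2 fold change 0.20, adjusted p = 0.022), and the other 4 ZnT genes had log2 fold changes between -0.08 and 0.08.

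The iron exporter and an importer were lower, whereas the mitochondrial iron carriers Slc25a37 (log2 fold change -0.06, adjusted p = 0.54) and Slc25a28 (-0.09, adjusted p = 0.2) and Slc39a14 did not pass. Slc40a1 encodes ferroportin, the iron exporter, and read 191, 176 and 211 with LNA Control and 116, 136 and 145 with LNA Malat1 (log2 fold change -0.54, SE 0.099, adjusted p = 0.0015, limma). Its change exceeded 1.5-fold when LNA Control replicate 2 (-0.60) or LNA Malat1 replicate 3 (-0.61) was left out. Slc11a2, the importer DMT1, went from 326, 294 and 313 to 224, 255 and 280 (log2 fold change -0.30, adjusted p = 0.015). For copper, Slc31a2 rose from 119, 109 and 134 to 176, 155 and 161 (log2 fold change 0.44, adjusted p = 0.0044), while Slc31a1, the high-affinity copper importer that lies 62316 bases away, had a log2 fold change of -0.09 (adjusted p = 0.27).

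Slc41a2, a magnesium transporter, read 239, 213 and 226 with LNA Control and 132, 130 and 141 with LNA Malat1. It fell from 226.0 ± 13 (SD, n = 3) in the controls to 133.2 ± 4.6 (SD, n = 2), and the log2 fold change was -0.74 (SE 0.077, adjusted p = 2e-05, limma), and its relatives Slc41a1 and Slc41a3 had log2 fold changes of 0.01 and -0.08 (adjusted p = 0.92 and 0.66). The gene lies on the minus strand of chromosome 10 from 83230848 to 83337882. Its RefSeq promoter (GRCm38.p6) was the only promoter among those of the called genes to hold the antioxidant element core TGACNNNGC, searched on both strands, and the stretch around the match is shown to place it. It is chr10:83337877-83337965, read on the minus strand, with the match in capitals starting 108 bases before the start site.
Slc41a2: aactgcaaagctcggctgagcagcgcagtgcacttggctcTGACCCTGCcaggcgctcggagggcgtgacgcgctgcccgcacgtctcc

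Metal genes outside the solute carriers gave 1 call among 20 tested of 24 listed, with a median log2 fold change of -0.03. The call was lower, as were 2.92% of all genes tested. Atp7b, a copper-exporting ATPase, read 58, 53 and 60 with LNA Control and 26, 24 and 22 with LNA Malat1 (log2 fold change -1.22, SE 0.164, adjusted p = 0.00016, limma). Atp7a, the related copper ATPase, had a log2 fold change of 0.03 (adjusted p = 0.83). The zinc-induced metallothioneins Mt1 (log2 fold change -0.12, adjusted p = 0.51) and Mt2 (-0.34, adjusted p = 0.27) and the transferrin receptor Tfrc (0.09, adjusted p = 0.25) did not pass. By adjusted p, 3 genes of the list were higher and 2 lower, beside 2231 and 2195 of all 15650 genes tested. The iron genes Tfr2, a second transferrin receptor (log2 fold change 0.51, adjusted p = 0.0015), and Steap3, a ferrireductase (0.36, adjusted p = 0.0046), were higher, and Ccs, the copper chaperone of superoxide dismutase (-0.52, adjusted p = 0.0042), was lower, each under 1.5-fold.

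Sugar and fuel transporters numbered 12, with 1 called higher and 1 lower (background 2.38% and 3.47%). Slc5a3 encodes SMIT1, which takes up myo-inositol, an organic osmolyte, together with sodium. It read 1541, 1524 and 1585 with LNA Control and 904, 957 and 934 with LNA Malat1, with little spread in either group, and fell from 1550.0 ± 31.5 (SD, n = 3) in the controls to 938.0 ± 26.9 (SD, n = 2). The log2 fold change was -0.73 (SE 0.05, adjusted p = 8.3e-07, limma). The gene lies on the plus strand of chromosome 16 from 92058322 to 92087473 and overlaps Mrps6, a mitochondrial ribosome gene of the same strand, which read 182, 179 and 199 against 119, 118 and 119 (log2 fold change -0.65, adjusted p = 7.7e-05). Reads on both genes were left out by the authors, so the values rest on the parts that the genes do not share. Other transporters of osmolytes did not pass, namely Slc6a6 for taurine at 2233, 2077 and 1925 against 1912, 1892 and 1896 (log2 fold change -0.13, adjusted p = 0.14) and Slc6a8 for creatine (log2 fold change -0.01, adjusted p = 0.95).

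Slc2a9, the facilitative transporter GLUT9 that carries urate, had the largest rise of the 160 genes. It read 35, 31 and 32 with LNA Control and 80, 62 and 68 with LNA Malat1, from 32.7 ± 2.1 (SD, n = 3) in the controls to 68.0 ± 8.5 (SD, n = 2), and the log2 fold change was 1.07 (SE 0.153, adjusted p = 0.00026, limma). Its mean lies at the limit of 50 used to choose the genes, and its control mean lies below it. It spans 38349273 to 38503143 on chromosome 5 (minus strand). Slc2a6, a lysosomal member of the same family, read 41, 46 and 46 against 75, 62 and 63 (log2 fold change 0.57, adjusted p = 0.0091). Of the monocarboxylate transporters, which carry lactate and pyruvate, Slc16a1 was lower at 1213, 1280 and 1161 against 1006, 1114 and 1077 (log2 fold change -0.19, adjusted p = 0.026, but 0.097 with LNA Malat1 replicates 1 and 3 merged, 0.11 without LNA Control replicate 2, and 0.14 and 0.078 without LNA Malat1 replicate 1 or 3), and Slc16a6 read 53, 38 and 60 against 54, 55 and 52 (log2 fold change 0.11, adjusted p = 0.65). The 3 fatty acid transport genes of family 27 had log2 fold changes from -0.28 to -0.09, and 0 passed by limma (0 at an unadjusted p under 0.05, the lowest adjusted p being 0.19).

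The amino acid group held 24 genes, including Slc7a6os, which is not a transporter. Of these, 2 were called higher and 1 lower (background 2.38% and 3.47%), with a median log2 fold change of -0.05. The heteromeric exchanger of large neutral amino acids consists of the heavy subunit Slc3a2 and a light subunit such as Slc7a5. On the level scale of normalized counts per kilobase of exon, Slc7a5 was highest of the 160 genes with 420.9 and Slc3a2 was the fourth with 285.3, against a median of 56.3 and a range from 3.75 to 420.9. Neither differed beyond its spread. Slc7a5 read 1812, 1593 and 1428 with LNA Control and 1514, 1487 and 1531 with LNA Malat1, the latter inside the control range (log2 fold change -0.09, SE 0.074, adjusted p = 0.42), and Slc3a2 read 1072, 1023 and 978 against 1009, 1005 and 953 (log2 fold change -0.05, SE 0.054, adjusted p = 0.52). Without LNA Control replicate 1 the log2 fold change of Slc7a5 was 0.002.

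The glutamine carriers Slc1a5 (log2 fold change -0.06, adjusted p = 0.6) and Slc38a2 (log2 fold change -0.12, adjusted p = 0.17) did not pass either. Slc7a1, the cationic amino acid transporter CAT1, had the highest mean count of the 160 genes, 2617, and read 2947, 2807 and 2566 against 2449, 2478 and 2455 (log2 fold change -0.17, adjusted p = 0.058). Slc7a2, the related CAT2, was lower by a small step, from 1034, 1027 and 1022 to 848, 887 and 909 (log2 fold change -0.22, adjusted p = 0.0055).

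The amino acid transporter genes with larger changes were outside family 7. Slc36a4, a high-affinity transporter of proline and tryptophan, read 679, 664 and 611 with LNA Control and 405, 432 and 407 with LNA Malat1. The mean fell from 651.3 ± 35.7 (SD, n = 3) in the controls to 419.0 ± 18.4 (SD, n = 2), and the log2 fold change was -0.65 (SE 0.058, adjusted p = 6.9e-06, limma), on the plus strand of chromosome 9 from 15709738 to 15743361. Slc36a1, its lysosomal relative, had a log2 fold change of -0.19 (adjusted p = 0.079). Slc43a2, the facilitative transporter LAT4 of branched-chain amino acids and phenylalanine, rose. Its libraries read 105, 92 and 121 with LNA Control and 194, 179 and 193 with LNA Malat1, from 106.0 ± 14.5 (SD, n = 3) in the controls to 186.2 ± 10.3 (SD, n = 2) (log2 fold change 0.83, SE 0.102, adjusted p = 7.7e-05), on the plus strand of chromosome 11 from 75531694 to 75577575.

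Slc6a17, a vesicular transporter of neutral amino acids known from neurons, was the only gene to lose its call under an alternative fit. It read 58, 40 and 46 with LNA Control and 76, 69 and 81 with LNA Malat1, with a log2 fold change of 0.65 (SE 0.154, adjusted p = 0.0073, limma). The mean went from 48.0 ± 9.2 (SD, n = 3) in the controls to 73.8 ± 6.7 (SD, n = 2), and the gene lies on the minus strand of chromosome 3 from 107467543 to 107518018. The rise was under 1.5-fold without LNA Control replicate 2 (log2 fold change 0.53, adjusted p = 0.037) and after quantile normalization (0.55, adjusted p = 0.019). The other 12 called genes were called under each of the 17 alternative fits.

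Genes of amino acid sensing and of mTORC1, the growth kinase that responds to imported amino acids, numbered 33 tested of 35 listed. Of these, 1 was called higher and 2 lower (8.00% and 2.92% of all genes tested), with a median log2 fold change of -0.02. By adjusted p, 3 were higher and 5 lower, beside 2231 and 2195 of all 15650 genes tested. Among the 5 lower was Rptor, a subunit of mTORC1, under 1.5-fold (log2 fold change -0.50, adjusted p = 0.00033, limma). Rragd, a GTPase of the lysosomal sensing complex, read 694, 687 and 698 with LNA Control and 410, 440 and 406 with LNA Malat1 (log2 fold change -0.73, SE 0.053, adjusted p = 1.3e-06, limma). Nprl2, a subunit of the inhibitory GATOR1 complex, read 133, 151 and 138 against 61, 82 and 88 (log2 fold change -0.88, SE 0.131, adjusted p = 0.00036). Castor2, related to the arginine sensor, read 47, 38 and 55 against 69, 73 and 82 (log2 fold change 0.68, SE 0.155, adjusted p = 0.0061), and it fell under 1.5-fold in 2 of the 17 alternative fits, quantile normalization (log2 fold change 0.55) and the fit without LNA Control replicate 2 (0.54). These 3 genes act on the same kinase from different sides, and the values describe their RNA only.

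Mitochondrial carriers of family 25 formed the largest family, with 34 genes. Most of these proteins sit in the inner membrane and exchange nucleotides, phosphate, amino acids, cofactors or metabolites with the cytosol, although Slc25a17 belongs to peroxisomes and Slc25a46 to the outer membrane. The median log2 fold change was -0.01 (-0.03 to 0.04 with other scalings), 0 genes were called higher by limma (5 passed the adjusted p and 6 an unadjusted p under 0.05) and 1 was called lower (6 passed). The called gene was Slc25a15, which encodes the ornithine carrier that links the mitochondrial and cytosolic parts of the urea cycle. It had the largest change of the 160 genes, from 293, 336 and 288 in LNA Control to 113, 131 and 124 in LNA Malat1, with the groups far apart. The mean fell from 305.7 ± 26.4 (SD, n = 3) in the controls to 124.8 ± 8.8 (SD, n = 2), 40.1% of the control level, with a log2 fold change of -1.31 (SE 0.084, adjusted p = 5.2e-07, limma). Without each library in turn the log2 fold change lay between -1.36 and -1.24.

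Slc25a15 lies on the minus strand of chromosome 8 of mm10 from 22375551 to 22398597. The nearest of the 160 genes, Slc20a2, lies 78191 bases away and had a log2 fold change of -0.05. A RefSeq promoter of Slc25a15 (GRCm38.p6) holds the letters of an E-box, CACGTG, which reads the same on both strands, and the stretch around the match is shown because this gene changed most. It is chr8:22398309-22398394, read on the minus strand, with the match in capitals starting 77 bases before a RefSeq start site. This start site lies inside the gene as given by the mm10 coordinates above, and by those coordinates the match is within the gene.
Slc25a15: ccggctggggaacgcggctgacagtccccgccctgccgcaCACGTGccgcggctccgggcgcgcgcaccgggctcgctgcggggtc

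Promoters, taken as 250 bases before to 50 bases after a start site, were at hand for 123 of the 160 genes (170 promoters). The E-box letters CACGTG were in 24 of them (14.1%), against 7.15% of all 32851 promoters in the RefSeq table, and in 2 of the 14 promoters of called genes, those of Slc25a15 and Slc39a11. The antioxidant element core was in 38 (22.4%), against 12.4% of all promoters. The amino acid response letters TGATGNAAN were in 5 (2.94%), against 3.95%, and in 0 of the 14 promoters of called genes. These are counts of letters and not of bound sites, and promoters of the same gene overlap in part. All promoters are those of 27025 genes with no minimum mean, so this background is not matched to the level of the 160 genes. No difference from it was tested.

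The carriers of the main energy exchange changed little. Slc25a4, the adenine nucleotide carrier of heart and muscle, had 360.9 normalized counts per kilobase, the second highest level per length of the 160 genes, and Slc25a5, its general isoform, had 259.3. Slc25a4 read 918, 950 and 833 with LNA Control and 801, 824 and 769 with LNA Malat1 (log2 fold change -0.17, SE 0.059, adjusted p = 0.046, limma), and its adjusted p was 0.14 with LNA Malat1 replicates 1 and 3 as 1 sample. Slc25a5 (log2 fold change -0.15, adjusted p = 0.21) and the phosphate carrier Slc25a3 (1041, 950 and 912 against 945, 920 and 898, log2 fold change -0.07, adjusted p = 0.4) did not pass.

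Among the other carriers that passed under 1.5-fold, Slc25a12, the aspartate-glutamate carrier of the malate-aspartate shuttle, read 722, 734 and 745 against 599, 632 and 624 (log2 fold change -0.25, adjusted p = 0.0029). Slc25a51, which carries NAD into the matrix, read 634, 604 and 570 against 450, 483 and 495 (log2 fold change -0.34, adjusted p = 0.0011). On the side of higher values were Slc25a22, a glutamate carrier (log2 fold change 0.36, adjusted p = 0.0061), and the calcium-regulated ATP-magnesium/phosphate carriers Slc25a24 (0.25, adjusted p = 0.021) and Slc25a25 (0.28, adjusted p = 0.011). Of 32 genes of the machinery that imports proteins into mitochondria, 0 were called by limma and 4 were lower by adjusted p (7 lower at an unadjusted p under 0.05), with a median log2 fold change of -0.10. Beside these stand 2195 lower by adjusted p of all 15650 genes tested.

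Carriers of the secretory pathway, which supply nucleotide sugars and other substrates to the endoplasmic reticulum and Golgi, numbered 25, with a median log2 fold change of 0.0. Family 35 contributed 20 of them, of which 0 were called by limma and 2 passed the adjusted p in each direction (2 higher and 4 lower at an unadjusted p under 0.05). Slc35d1 (log2 fold change 0.35, adjusted p = 0.0012) and Slc35e2 (0.29, adjusted p = 0.0016) were higher, and Slc35g1 (-0.36, adjusted p = 0.0015) and Slc35f5 (-0.17, adjusted p = 0.041) lower. Slc35b1, which exchanges ATP into the endoplasmic reticulum, and Slc33a1, which brings in acetyl-CoA, had log2 fold changes of -0.13 and 0.13 (adjusted p = 0.1 and 0.14).

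Slc37a2, a sugar phosphate exchanger of the endoplasmic reticulum, was the called gene of this group. It read 189, 188 and 191 with LNA Control and 304, 302 and 283 with LNA Malat1, the tightest control group among the called genes, and rose from 189.3 ± 1.5 (SD, n = 3) in the controls to 297.8 ± 6.0 (SD, n = 2). The log2 fold change was 0.64 (SE 0.063, adjusted p = 1.4e-05, limma), on the minus strand of chromosome 9 from 37227585 to 37255738. The other genes of the family, among them the glucose-6-phosphate transporter Slc37a4, had log2 fold changes between -0.08 and 0.05.

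Slc17a5 encodes sialin, which carries free sialic acid out of lysosomes. It read 54, 51 and 54 with LNA Control and 84, 88 and 99 with LNA Malat1, and rose from 53.0 ± 1.7 (SD, n = 3) in the controls to 89.8 ± 2.5 (SD, n = 2) (log2 fold change 0.75, SE 0.12, adjusted p = 0.00057, limma). The gene lies on the minus strand of chromosome 9 from 78536488 to 78588041. By the GO terms in the deposited table, 12 of the 145 annotated solute carrier genes are lysosomal, with 1 called higher and 0 lower by limma. By adjusted p, 3 of these were higher and 2 lower (5 and 4 at an unadjusted p under 0.05). At the plasma membrane are 68, with 4 called in each direction. Beside these stand 236 called higher and 344 lower of the 9918 protein-coding genes of the same minimum mean, and no difference was tested.

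Transporters of organic ions, nucleosides and vitamins numbered 18, and 0 were called by limma (2 passed the adjusted p in each direction, and 2 higher and 5 lower had an unadjusted p under 0.05). Slc44a1, a choline transporter, rose from 351, 348 and 329 to 407, 424 and 436 (log2 fold change 0.30, adjusted p = 0.0018), whereas Slc44a2 had a log2 fold change of -0.06 (adjusted p = 0.53). Slc22a5, the carnitine transporter that heart muscle depends on for fatty acid oxidation, read 122, 112 and 116 against 98, 83 and 106 (log2 fold change -0.29, adjusted p = 0.063). Its neighbour Slc22a21, 58305 bases away, read 49, 45 and 57 against 71, 64 and 72 (log2 fold change 0.45, adjusted p = 0.027). Slc10a7 (log2 fold change -0.36, adjusted p = 0.0057) and Slc49a4 (-0.37, adjusted p = 0.017) were lower, and the nucleoside transporter Slc29a1 had a log2 fold change of -0.07 (adjusted p = 0.37). Slc47a1, a proton-coupled exporter of organic cations, had 356.8 normalized counts per kilobase, the third level per length of the 160 genes, and a log2 fold change of -0.06 (adjusted p = 0.41).

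**Figure D4:**
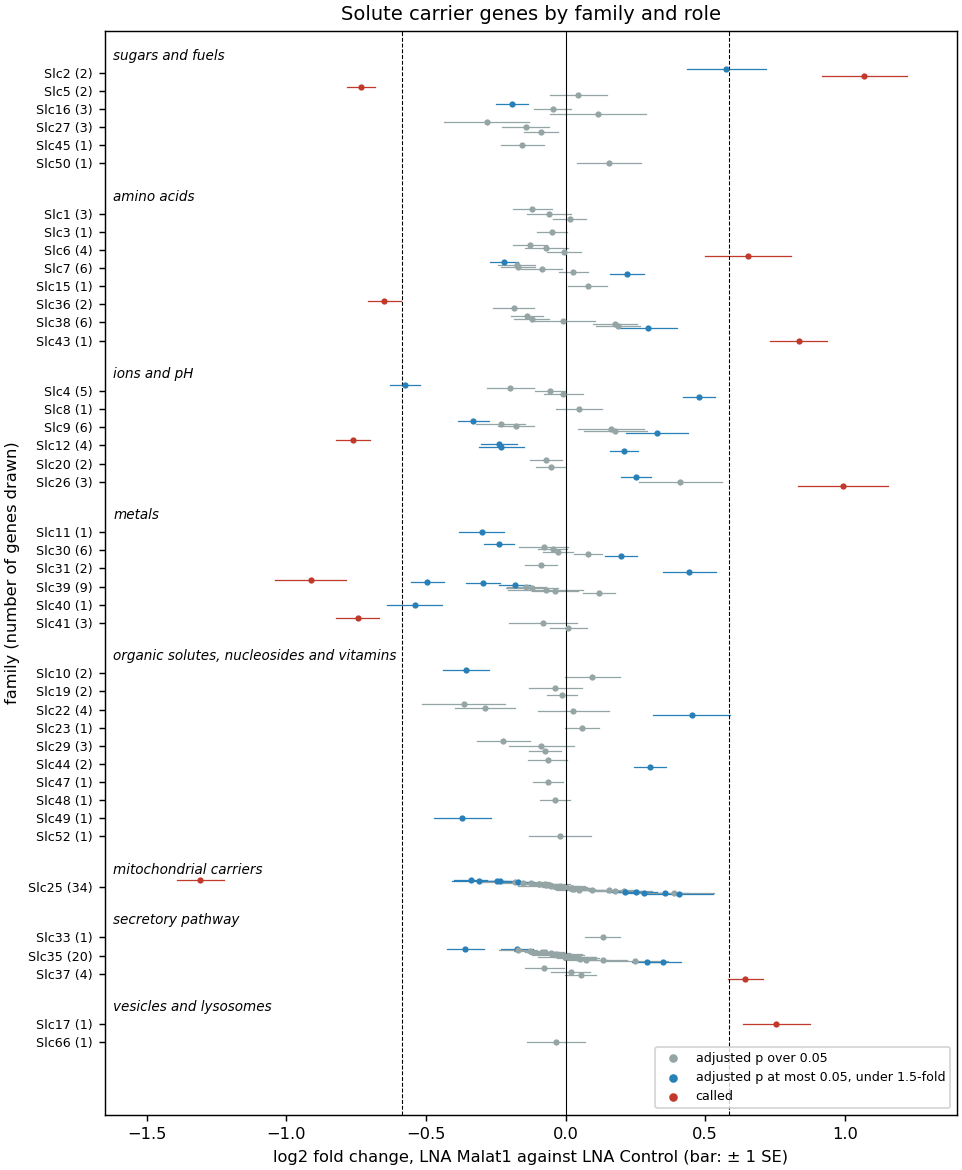
Each point is the log2 fold change of a solute carrier gene between LNA Malat1 and LNA Control with a bar of 1 standard error to each side, in lines by family (number of genes drawn in brackets) under the transported substrate or site. Red points are called, blue points passed the adjusted p under 1.5-fold (dashed lines), and most of families 25 and 35 lie near 0, while the metal families hold 17 of 22 genes below 0.

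Other membrane transporters of the same minimum mean were set beside the solute carriers. Of 23 ABC transporter genes, 2 were called higher and 0 lower by limma (6 lower by adjusted p and 8 at an unadjusted p under 0.05), with a median log2 fold change of -0.02. Of 16 P-type ATPase genes, 0 were called higher by limma (3 by adjusted p and 4 at an unadjusted p under 0.05) and 2 lower, with a median of -0.14. Solute carriers named without the Slc prefix, such as the mitochondrial pyruvate carrier, numbered 38 tested of 50 listed, with 0 called by limma (2 higher and 7 lower by adjusted p, 9 and 8 at an unadjusted p under 0.05) and a median of -0.05. Of 13 accessory proteins, 7 were tested, and Arl6ip5, which retains a glutamate transporter in the endoplasmic reticulum, was called lower at 304, 320 and 291 against 192, 206 and 193 (log2 fold change -0.63, SE 0.066, adjusted p = 2.4e-05, limma). Of the protein-coding genes with a mean of at least 50, 2.38% were called higher and 3.47% lower, and 11.0% and 20.6% passed the adjusted p. No difference between the groups of transporter genes, or from these shares, was tested.

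Shared sequence limits some values. Of the 160 genes, 56 overlap another gene of the table and 24 overlap a gene with a mean of at least 50, among them the called genes Slc39a11 and Slc5a3. Reads assigned to several genes were left out, and the sources used here do not say whether the counting used the strand.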

How the data were processed

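RNA of HL-1 cells was sequenced in 3 libraries with LNA Control and 3 with LNA Malat1, which were grouped by the sample labels. Per the submitters' notes and the paper, the authors used Trimmomatic 0.39 for trimming and STAR 2.7.7a for alignment to mm10 (Ensembl annotation), counted reads on exons with featureCounts 1.6.5, dropped reads that hit several genes or places, and normalized and tested with DESeq2 1.30.0. What the authors deposited is a score rather than a raw count. It is the count of a gene divided by a factor for its library and rounded to a whole number, and is called the normalized count here. No column of the table lacks a sample, and none holds a comparison.

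Genes with a mean of at least 5 (15650) were log-transformed as log2(normalized count + 1) and tested two-sided with limma 3.58.1 (R 4.3.3), using eBayes with an intensity trend. P-values were adjusted over all of these genes by the Benjamini-Hochberg method. A pseudocount of 1 understates the change of low genes. The code was tested on simulated data. Adjusted p-values are limma's throughout. An exact permutation test was not run on any gene, since its smallest p for 3 against 3 libraries is 0.1. The reads on genes were recovered from the gaps that rounding leaves in each column. The factor of LNA Malat1 replicate 2 was less certain than the others (0.9952 to 1.0015).

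Positions are those of the deposited table (mm10). Exonic lengths came from GENCODE M21 on the same build, and promoters from the RefSeq table of GRCm38.p6. The solute carrier genes, their roles and the gene lists were chosen with earlier results of these data known. The genes named by rule were Malat1, called genes, the 3 with the highest mean, those next to the limit of 50, a list of transporters taken whatever their values (among them Slc3a2, Slc7a5, Slc25a4, Slc30a1 and Slc16a1), and called genes of the lists. Other genes named were chosen after their values were seen. Alternatives were the replicate number as a block, other pseudocounts (0.1 and 5), median-of-ratios and quantile scaling, other filters and folds, no intensity trend, voom on the recovered reads, each library left out, LNA Malat1 replicates 1 and 3 merged, and, chosen after seeing the data, library totals set equal. Some genes that the counts include are not reported here by name or in the figures. The microscopy and mouse experiments were not analysed here.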

Additional observations from a re-analysis of the deposited data

How the results depend on the processing

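Each alternative fit kept 12 or 13 of the 13 called solute carrier genes, and Slc6a17 was the gene lost, without LNA Control replicate 2 and under quantile normalization. Some of the 17 fits added calls, namely Slc2a6 (5 fits), Slc4a4 (3) and Slc40a1 (2), so that up to 15 were called. Leaving out each library in turn gave 6 to 7 solute carrier genes called higher and 7 to 8 lower, 15 to 24 higher and 19 to 34 lower by adjusted p alone, a median log2 fold change of -0.059 to -0.016, and 810 to 1582 (higher) and 406 to 475 (lower) of all genes called. All genes called higher numbered 770 under quantile normalization (696 lower), 317 with a mean of at least 50 and 831 when LNA Malat1 replicates 1 and 3 were merged. The median of the solute carriers was 0.002 under quantile normalization and -0.006 with library totals set equal. A fold of at least 2 left 1 called higher and 2 lower. A minimum mean of 100 left 3 called higher, and a minimum of 5 gave 25 (43 by adjusted p). Among the genes named by rule, signs turned for 5 that had not passed: under quantile normalization for Slc16a6 (-0.031), Slc3a2 (0.007), Slc1a5 (0.004) and Slc44a2 (0.0), and on leaving out libraries for Slc7a5 (-0.169 to 0.002), Slc1a5 (-0.143 to 0.022), Slc44a2 (-0.121 to 0.013) and Slc16a6 (-0.071 to 0.252). The causes of these shifts were not tested, apart from the fewer genes that stricter limits leave. Depth limits genes near 50 counts, whose median standard error was 0.13 for means of 50 to 100 against 0.058 from 500.

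In their deviations from the group means over 10490 genes, same-numbered libraries correlated by 0.086, 0.182 and 0.083. Each value was above those of the differently numbered libraries, which ran from -0.189 to 0.046. Whether the numbers pair the libraries was not tested, and the main fit did not pair them. With the replicate number as a block, 6 solute carrier genes were called higher and 7 lower, 13 of the 13 shared, with 24 higher and 29 lower by adjusted p alone and 1297 and 442 of all genes called.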

Other observations

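Solute carrier genes below the limit of 50 showed other values than those above it. Of 56 such genes with a mean of 5 to under 50, 19 were called higher and 3 lower, with a median log2 fold change of 0.41, beside 503 and 85 of the 2402 protein-coding genes in that range and their median of 0.28. Several of those called higher had an LNA Control mean under 5, among them Slc15a1 (0.7), Slc16a12 (1.3), Slc5a1 (2.0) and Slc39a2 (4.3). They passed the minimum of 5 only through the LNA Malat1 libraries, which tilts the count and the median upward. The following genes were chosen after their values were seen. Slc29a4, a monoamine transporter of the plasma membrane, read 7, 7 and 8 normalized counts with LNA Control and 46, 48 and 41 with LNA Malat1 (log2 fold change 2.46, SE 0.225, adjusted p = 7.9e-06, limma). Slc44a3, a relative of the choline transporters, read 18, 8 and 18 against 43, 29 and 52 (log2 fold change 1.48, SE 0.313, adjusted p = 0.0039). Slc45a3 went the other way, from 31, 35 and 37 to 17, 17 and 16 (log2 fold change -0.997, SE 0.2, adjusted p = 0.0027).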
